A study of Mus musculus with 11 samples.

Results

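The windows described here are the 6 stretches of DNA, each 500 bp long, that the deposited tables name after Cdh8, Cdh9, Cdh11 or Pcdh8. They were chosen by gene name among the 1239 windows of 4 tables, which the authors had selected on a difference in MeDIP signal between cycle lengths. All 6 stood in 1 table, the ventral comparison of 22 h with 24 h cycles, which holds 812 windows. Cdh11 named 3 of them and the other genes 1 each. None of the 4 genes named a window in the ventral 26 h table or in either dorsal table. The tables hold selected windows only, so levels of these stretches in the dorsal part or at 26 h were not analysed here.

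DNA methylation was profiled by MeDIP-seq, an assay in which an antibody against methylated cytosine pulls down sheared DNA and the captured fragments are sequenced. The DNA came from the suprachiasmatic nucleus (SCN), the hypothalamic pacemaker of daily rhythms, of wild type C57BL/6Cr1 mice that lived on light-dark cycles of 22, 24 or 26 h. The ventral 22 h and ventral 24 h groups used here had 2 samples each by the labels, as had the other groups except dorsal 24 h, which had 1 (11 samples in 6 groups). Both groups were 6 weeks old at the start, spent 6 weeks on their cycle and 3 days in darkness, and are labelled postnatal day 90. SCN slices of about 250 µm were taken at circadian time 4 and parted by knife into ventral and dorsal pieces. The question, from the series' design text, is whether DNA methylation in the SCN differs with the length of the light-dark cycle. The labels do not say whether a sample was 1 mouse. The pieces hold every cell type of the tissue, and the data used here hold no expression marker that could check the dissection.

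Cadherins are transmembrane proteins that join neighbouring cells through calcium-dependent binding of their outer domains and are linked to the actin skeleton by catenins. Cdh8, Cdh9 and Cdh11 encode type II cadherins, which in the brain help neurons with like connections to sort together and help form synapses. Pcdh8 encodes a protocadherin, also called arcadlin, that is induced by neuronal activity and, in rat neurons, takes part in the internalisation of cadherins at synapses. In mammals DNA methylation is found mainly at CpG dinucleotides, and it silences most mobile elements.

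None of the 6 windows lay in a cadherin gene. In the mm9 build and the GENCODE M1 annotation, no gene of any kind overlapped a window, and no listed window of any table fell within the body of Cdh8, Cdh9, Cdh11 or Pcdh8. The Pcdh8 window was the closest to its gene and the sole one upstream of it: chr14:80199501-80200000 lay 28.6 kb before the start site, by the authors' distance. The Cdh9 window, chr15:17093001-17093500, lay 385 kb downstream of the start site and 306 kb past the end of the gene.

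The windows on chromosome 8 lay farther away, in the region around and between Cdh8 and Cdh11, both of which are read from the minus strand. The Cdh8 window, chr8:100704501-100705000, lay 1236 kb downstream of the start site in the authors' table and 843 kb past the 3′ end of the annotated gene. The Cdh11 windows lay 1576 kb (chr8:103732501-103733000), 819 kb (chr8:104490001-104490500) and 775 kb (chr8:104533501-104534000) downstream of its start site, and are called here by these distances. The median distance of the 6 windows was 797 kb, against 106 kb over the listed windows higher at 22 h, and 5 of the 6 lay beyond 200 kb, against 31.9% of those windows. The name of a cadherin gene therefore says which RefSeq start site was nearest and not that the gene was methylated. The annotation holds closer start sites of other genes at 4 of the 6 windows. At the 1576 kb Cdh11 window this was the predicted gene Gm17316, 1.69 kb away. At the 819 kb and 775 kb windows it was the small RNA gene SNORA17, at 427 and 470 kb, and at the Cdh8 window the small RNA gene U6atac, at 494 kb. Measured to the nearest start of any annotated gene, the median distance was 406 kb. At the Cdh8 window the nearest annotated start of Cdh8 itself lay 1099 kb away, since the annotation holds a start site other than the authors'.

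**Figure D1:**
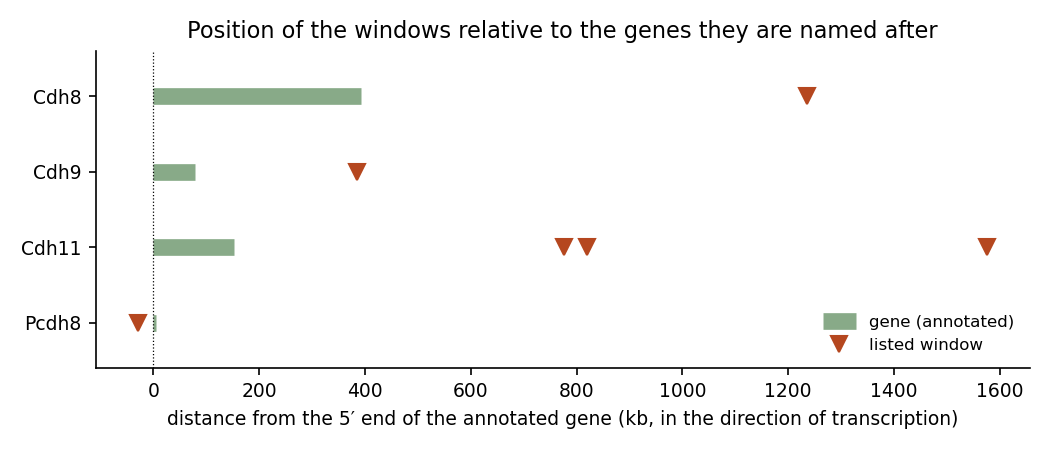
Each row shows a gene drawn from its annotated 5′ end at 0, with the distance in kb along the direction of transcription on the x axis. Green bars are the annotated gene bodies and red triangles the listed windows. The Pcdh8 window sits 28.6 kb upstream, and the other 5 windows sit downstream of the ends of Cdh8, Cdh9 and Cdh11, up to 1576 kb from the start site.

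The sequences of the windows fall into recognisable kinds, and stretches of the mm9 plus strand are given here with every CpG in capitals. The Cdh8 and Cdh9 windows, on chromosomes 8 and 15, hold the same sequence. In a local alignment they matched over 421 bases at 99.8% identity and shared 365 of their 470 words of 31 bases. The stretches chr8:100704801-100705000 and chr15:17093222-17093421, the last 200 bases of that match, hold 14 CpGs each and differ at 1 base, G175A (Cdh8 base first, counted from the first base printed).
Cdh8: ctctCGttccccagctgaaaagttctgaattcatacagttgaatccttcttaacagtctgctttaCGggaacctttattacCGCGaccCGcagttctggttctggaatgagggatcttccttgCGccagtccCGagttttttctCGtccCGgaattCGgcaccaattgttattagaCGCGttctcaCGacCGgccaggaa
Cdh9: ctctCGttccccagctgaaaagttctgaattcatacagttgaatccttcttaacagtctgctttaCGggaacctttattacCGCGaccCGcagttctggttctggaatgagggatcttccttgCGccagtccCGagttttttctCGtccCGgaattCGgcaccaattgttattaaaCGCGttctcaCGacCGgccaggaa

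Of the 3 Cdh11 windows, those at 819 kb and 775 kb are related, with a local alignment of 375 columns at 72% identity. The best matches of the 1576 kb window to either were at most 18 columns long. The 1576 kb window is built of tandem units of 208 bases, and chr8:103732501-103732708 is 1 such unit, with 12 CpGs. The 819 kb window, of which chr8:104490001-104490250 is shown, has 17 CpGs in its first 250 bases. The 775 kb window begins with repeats of 79 bases, seen in chr8:104533501-104533750, a stretch with 12 CpGs.
Cdh11, 1576 kb: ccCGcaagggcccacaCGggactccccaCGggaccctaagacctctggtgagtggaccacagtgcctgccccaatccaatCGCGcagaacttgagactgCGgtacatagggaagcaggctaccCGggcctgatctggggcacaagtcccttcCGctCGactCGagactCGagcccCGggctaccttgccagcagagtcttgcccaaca
Cdh11, 819 kb: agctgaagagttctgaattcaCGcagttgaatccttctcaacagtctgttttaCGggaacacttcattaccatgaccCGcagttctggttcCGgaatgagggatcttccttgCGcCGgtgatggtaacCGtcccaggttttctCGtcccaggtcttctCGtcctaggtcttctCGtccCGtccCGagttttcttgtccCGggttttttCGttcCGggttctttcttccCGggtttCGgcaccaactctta
Cdh11, 775 kb: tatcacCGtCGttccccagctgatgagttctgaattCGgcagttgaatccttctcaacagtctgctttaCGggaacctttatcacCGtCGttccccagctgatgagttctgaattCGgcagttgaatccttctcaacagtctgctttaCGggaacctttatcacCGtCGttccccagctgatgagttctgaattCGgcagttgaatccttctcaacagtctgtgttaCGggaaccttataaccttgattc

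The Pcdh8 window is made of a repeated end and a unique rest. Its 11 CpGs all lie between bases 4 and 134, as the stretch chr14:80199501-80199800 shows.
Pcdh8: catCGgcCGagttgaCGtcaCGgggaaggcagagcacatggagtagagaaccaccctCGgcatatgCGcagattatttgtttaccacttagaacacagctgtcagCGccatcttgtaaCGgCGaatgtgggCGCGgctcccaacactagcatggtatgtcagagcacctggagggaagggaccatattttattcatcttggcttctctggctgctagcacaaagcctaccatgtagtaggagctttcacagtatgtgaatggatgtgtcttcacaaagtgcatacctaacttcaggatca

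The MeDIP signal listed at all 6 windows was higher after 22 h than after 24 h cycles. Where a window is repeated sequence, as shown further below, its reads may stem from other copies. The values are RPKM, read numbers that the authors divided by window length and column depth, and each cycle length appears in the table as 1 column. The columns had depths of about 8170000 reads at 22 h and 5230000 reads at 24 h, recovered from the RPKM step that 1 read is worth. With 1 column for each cycle length, the variation from mouse to mouse is not visible. The intervals below are exact 95% intervals (Clopper-Pearson on the recovered reads) and cover only the counting error of independent reads. Several reads can stem from 1 captured molecule, and the intervals are then too narrow. The windows were listed for their difference between these columns, so the values are a description and were not tested.

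The strongest signal was at the 775 kb Cdh11 window, with 19.3 RPKM at 22 h (79 reads) and 5.74 RPKM at 24 h (15 reads). It was at the same time the window with the smallest ratio, 3.37-fold higher at 22 h (interval 1.93 to 6.31). The 1576 kb Cdh11 window had 16.9 RPKM at 22 h (69 reads) and 3.06 RPKM at 24 h (8 reads), a 5.52-fold higher value at 22 h (2.65 to 13.3). The 819 kb Cdh11 window was almost without reads at 24 h. It had 11.5 RPKM at 22 h (47 reads) and 0.76 RPKM at 24 h (2 reads), which gives a 15-fold higher value at 22 h with a wide interval (3.94 to 128).

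The near-identical Cdh8 and Cdh9 windows also had similar values. The Cdh8 window had 17.1 RPKM at 22 h (70 reads) and 4.21 RPKM at 24 h (11 reads), 4.07-fold higher at 22 h (2.14 to 8.53). The Cdh9 window had 15.9 RPKM at 22 h (65 reads) and 3.82 RPKM at 24 h (10 reads), 4.16-fold higher at 22 h (2.12 to 9.08). A read whose whole sequence occurs in both windows cannot be assigned to 1 copy, so these windows are not independent observations. How the authors treated reads with several matches is not given in the sources used here.

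The Pcdh8 window had the lowest signal at 22 h. It held 9.3 RPKM at 22 h (38 reads) and 0.76 RPKM at 24 h (2 reads), 12.2-fold higher at 22 h (3.14 to 104). The levels at 22 h, from 9.3 to 19.3 RPKM, all lay above the levels at 24 h, from 0.76 to 5.74 RPKM. The order of the ratios is not resolved by these reads: all 6 intervals share the range from 3.94 to 6.31. More methylation per DNA copy and a larger share of cells with methylated copies cannot be told apart in such tissue pieces. With 1 column per cycle length, neither can be told apart from unequal capture of methylated DNA between the columns.

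**Figure D2:**
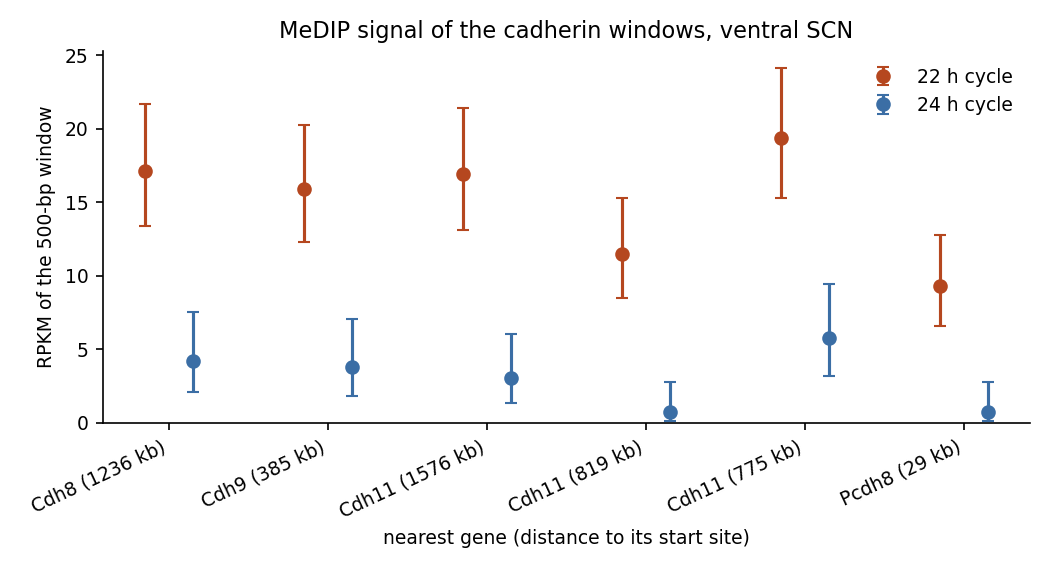
RPKM of each window in the ventral SCN on the y axis, at 22 h (red) and 24 h (blue), with exact 95% Poisson intervals of the recovered reads as bars and the distance to the named gene's start site in brackets. Each point is 1 deposited column; the 22 h values run from 9.3 to 19.3 RPKM and the 24 h values from 0.76 to 5.74 RPKM.

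The direction and size of these differences were those of most of the list. Higher at 22 h were 6 of the 6 cadherin windows and 75.7% of all 812 windows (615). The lower bound of the ratio was above 1 for the 6 cadherin windows and for 75.1% of the list, and the ratio was at least 3-fold for the 6 and for 72.7% of the list. The choice of the members used this contrast, so nothing is read from these counts. The median ratio was 4.84 over the cadherin windows, 4.77 over all windows of the list and 5.52 over the 615 windows higher at 22 h. Among those 615, ordered from the highest ratio, the 819 kb Cdh11 window stood at place 48, the Pcdh8 window at 57 and the 775 kb Cdh11 window at 561. In the authors' deposited table the log2 fold changes, which run as 24 h over 22 h, lay between -4.03 at the 819 kb Cdh11 window and -1.72 at the 775 kb window. The Cdh9 window was near the edge of the list, with an unadjusted p of 7.90e-06 in the authors' deposited table (edgeR) where the largest p listed was 9.94e-06; 702 of the 812 windows had a smaller one. These p-values compare 2 columns and not groups of mice.

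All 6 windows were dense in CpG compared with the genome at large. Counts of CpG were 29 at the 775 kb Cdh11 window, 27 at the 1576 kb window, 25 at the 819 kb window, 18 each at Cdh8 and Cdh9 and 11 at Pcdh8. The median was 21.5, against 26 over the list, 28 over its windows higher at 22 h, 5 over its windows lower at 22 h and 3 over 10240 evenly spaced windows of the genome. At least 10 CpGs were present in the 6 cadherin windows, in 96.7% of the listed windows higher at 22 h and in 7.07% of the evenly spaced windows.

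**Figure D3:**
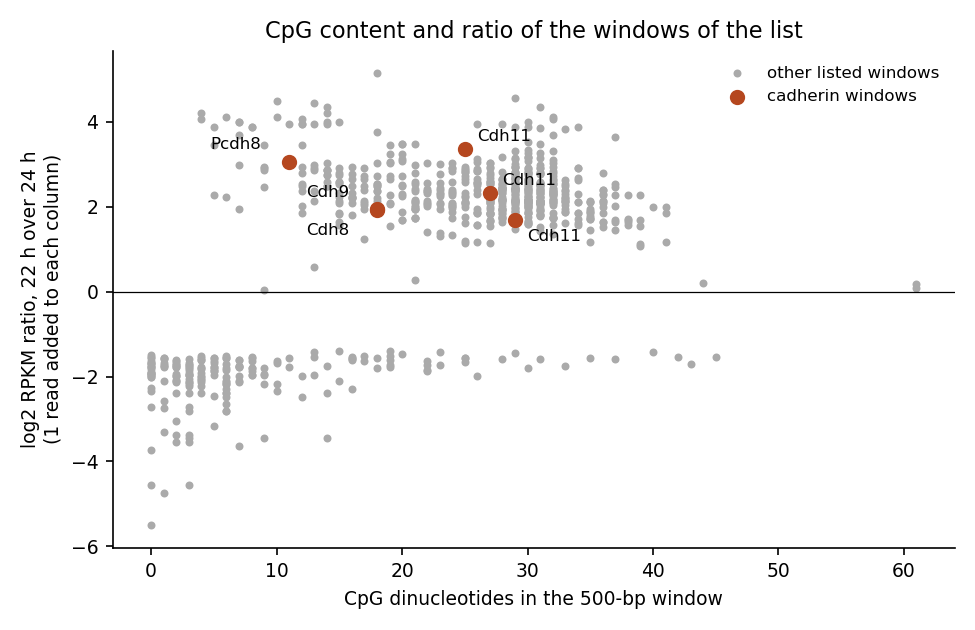
CpG count of each listed window on the x axis against the log2 ratio of RPKM, 22 h over 24 h, on the y axis, with 1 read added to each column so that windows with 0 reads can be shown. Cadherin windows are red, with Cdh8 and Cdh9 on the same spot at 18 CpGs, and lie among the grey points of the other listed windows higher at 22 h.

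Of the 6 windows, 4 held no single-copy sequence of 31 bases, and a further 1 was mostly repeated. Each 31-base word was looked up on both strands of the whole genome. No word of the Cdh8, Cdh9, 775 kb Cdh11 and 1576 kb Cdh11 windows occurred a single time, and their median words occurred 671, 597, 244 and 2888 times. In the 819 kb Cdh11 window 17.2% of the words were single-copy and the median word occurred 59.5 times. The Pcdh8 window was the exception, as 74.7% of its words occurred once. It was the 1 cadherin window called mostly unique, with at least 50% single-copy words, against 3.09% of the listed windows higher at 22 h, 56.3% of those lower at 22 h and 86.5% of the evenly spaced windows.

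Within the Pcdh8 window, CpGs and repeated sequence coincided. The words that start in the first 119 bases were repeated, some of them up to 4944 times, and every word after that was single-copy. All 11 CpGs lay in the repeated end, which runs to base 149, and none in the unique remainder. This window had 38 reads at 22 h, and the table does not show where within the 500 bp they lay.

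**Figure D4:**
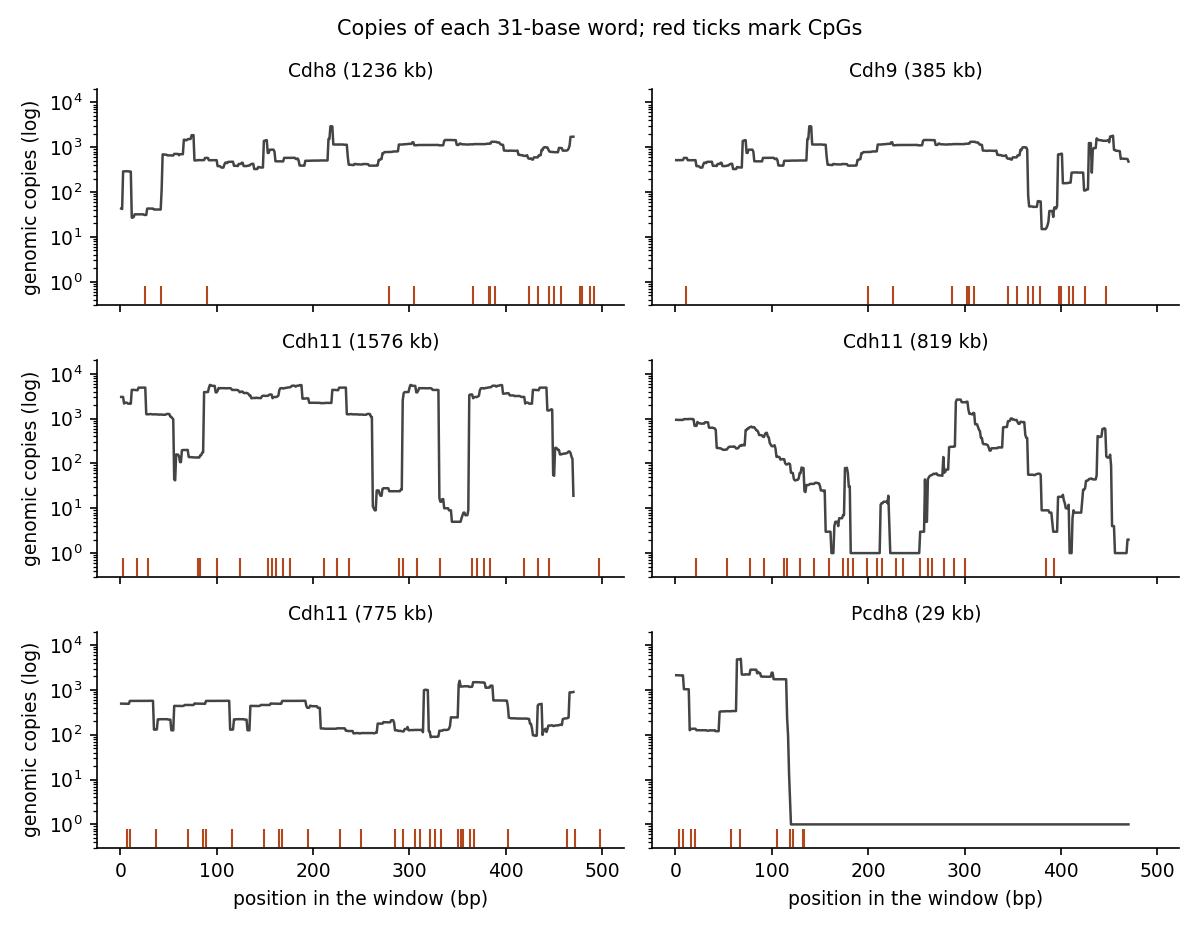
Number of genomic copies (log axis) of each 31-base word along the 6 windows, with position in bp on the x axis and red ticks at CpGs. In the Pcdh8 panel the copies fall to 1 after the first 119 bases and the ticks end at base 134, while the Cdh8, Cdh9, 775 kb Cdh11 and 1576 kb Cdh11 windows never reach 1 copy.

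The surroundings of the windows held long reading frames of mobile elements. LINE-1 elements encode a reverse transcriptase with the amino acid motif FADD, and that of LTR retrotransposons holds YXDD, where X is any residue. A frame of at least 600 codons with either motif lay within 8000 bp of 4 of the 6 cadherin windows, against 78.2% of the listed windows higher at 22 h, 6.09% of those lower at 22 h and 6.07% of the evenly spaced windows. Frames with YXDD lay near the Cdh8, Cdh9 and 775 kb Cdh11 windows (895, 895 and 1093 codons), and 23.1% of the listed windows higher at 22 h had one. The frames of 895 codons near Cdh8 and Cdh9 were 99.6% identical as protein, and the frame near the 775 kb Cdh11 window matched that of Cdh8 over 750 residues at 98.3%.

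The Pcdh8 window proved to be related to these by its neighbourhood. A frame of 621 codons without either motif began 310 bp from it and was 94.5% identical as protein to a frame of 608 codons that overlaps the Cdh8 window. Its repeated end of 149 bases was matched over 145 aligned columns at 97.2% identity in a stretch 5928 bp from the Cdh8 window and in another 6015 bp from the Cdh9 window. It was also matched at 91.2% over 148 columns, 4347 bp from the 775 kb Cdh11 window, and at 82.1% over 145 columns, 167 bp from the 819 kb Cdh11 window. The 819 kb window matched bases 313 to 430 of the Cdh8 window at 90.8% identity. By these frames and alignments together, 5 of the 6 windows, on chromosomes 8, 14 and 15, lay in or at copies of related LTR-type sequence. The alignments were made for the cadherin windows only, so no share over the list stands beside this count. By the YXDD frame alone it was 3 of the 6, against 23.1% of the listed windows higher at 22 h and 1.4% of the evenly spaced windows. In mice, LTR sequence of this kind is known from the intracisternal A particle elements, which are heavily methylated in most tissues; this name rests on general knowledge, as no repeat annotation was used here.

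The 1576 kb Cdh11 window was of another kind. Of its 15-base words, 81.9% recurred about 1 unit away, with a main spacing of 208 bp, a pattern known from the promoters of mouse LINE-1 elements, and a frame of 1300 codons with FADD began 1435 bp beyond it on the same strand. It was the 1 cadherin window with such tandem units, against 56.4% of the listed windows higher at 22 h and 0.137% of the evenly spaced windows. The best match to the Pcdh8 end within 8000 bp of it was 15 columns long. The Cdh9 window had a FADD frame of 670 codons nearby as well, 184 bp away, which was 98.3% identical as protein to part of the frame at the 1576 kb Cdh11 window. Frames with FADD thus lay near 2 of the 6 cadherin windows, against 56.1% of the listed windows higher at 22 h and 4.7% of the evenly spaced windows.

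**Figure D5:**
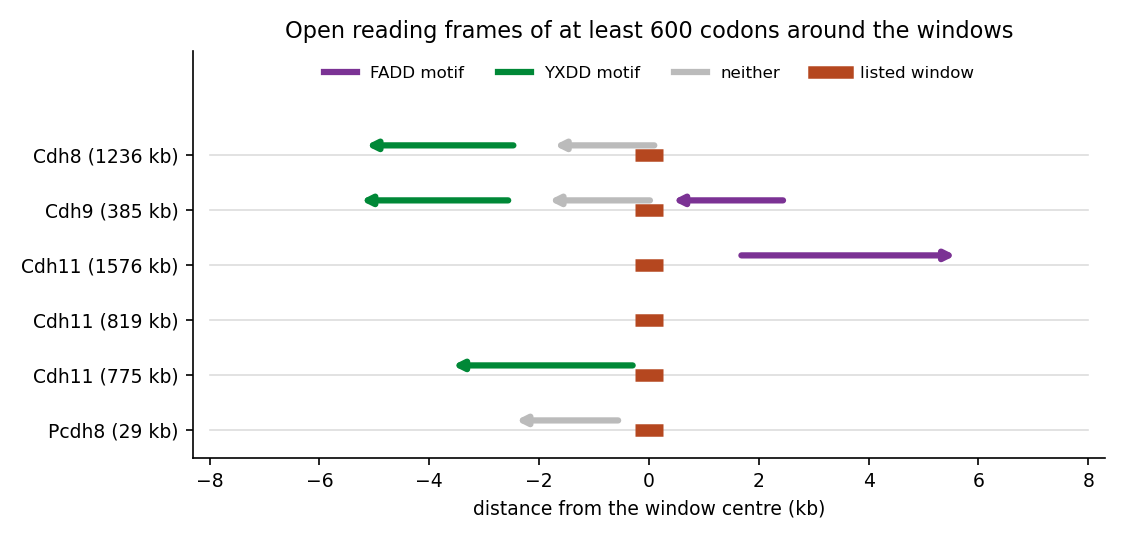
Open reading frames of at least 600 codons around each window, with the distance from the window's centre in kb on the x axis and arrows pointing in the reading direction. Purple frames hold FADD, green ones YXDD and grey ones neither motif; YXDD frames lie to the left of the Cdh8, Cdh9 and 775 kb Cdh11 windows, and the 819 kb Cdh11 window has no such frame.

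Other windows of the list share sequence with the cadherin windows. At least 100 words were shared with the Cdh8 window by 14 listed windows, including the Cdh9 window. The Cdh9 window shared as many with 14 listed windows, including the Cdh8 window. All were higher at 22 h, with medians of 17.7 RPKM at 22 h and 4.21 RPKM at 24 h in both sets and ratios from 2.90 to 6.24. The 1576 kb Cdh11 window shared at least 100 words with 228 windows, all higher at 22 h, with medians of 16.4 RPKM at 22 h and 3.06 RPKM at 24 h and ratios from 3.13 up to windows without a read at 24 h. The 775 kb Cdh11 window shared them with 5 windows, the Pcdh8 window with 2 and the 819 kb Cdh11 window with 1, all higher at 22 h. The medians of the Pcdh8 set were 17.7 RPKM at 22 h and 4.40 RPKM at 24 h, a median ratio of 4.07 where the Pcdh8 window itself had 12.2. The window that shared at least 100 words with the 819 kb Cdh11 window was 4.80-fold higher at 22 h, against 15-fold at the 819 kb window itself. Reads of these sets that lie wholly in repeated sequence may stem from other copies, and where the reads lie is not shown. Of the whole list 75.7% was higher at 22 h, as were 347 of its 350 windows with tandem units. The list was selected on this contrast, so nothing is read from the direction of the sets.

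The window with most words in common with Cdh8 and with Cdh9 was nearest Wnt2b, a gene of a secreted Wnt signal (279 and 265 of 470 words), with 17.4 RPKM at 22 h and 4.21 RPKM at 24 h. All 357 different words of the 775 kb Cdh11 window recurred in a window nearest Cobl, an actin nucleator gene, with 19.8 RPKM at 22 h and 5.35 RPKM at 24 h. The window nearest Chst9, a sulfotransferase gene, held 241 of the 331 different words of the 1576 kb Cdh11 window, with 18.9 RPKM at 22 h and 2.29 RPKM at 24 h. These carry the sequence of a cadherin window near genes of other families. For the Pcdh8 window the closest was nearest Nr5a2, a nuclear receptor gene, with 115 of 470 words, 16.4 RPKM at 22 h and 3.82 RPKM at 24 h. For the 819 kb Cdh11 window it was nearest 9330111N05Rik, with 178 of 470 words, 14.7 RPKM at 22 h and 3.06 RPKM at 24 h.

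By their values alone, the most similar listed windows of other genes were nearest Pabpc4l (for Cdh8), Traf3ip1 (Cdh9), Rabgap1l (1576 kb Cdh11) and Mmp1b (Pcdh8), each with the same RPKM as the cadherin window in both columns. The same held for a gene that the table writes as the date 3-Mar (775 kb Cdh11), while Vmn2r60 was the nearest to the 819 kb Cdh11 window, 0.13 away on the log2 scale. Likeness was the Euclidean distance of log2 RPKM over 2 columns with 0.5 reads added. Several windows tied at distance 0, such as 7 for the Cdh9 window, so the measure singles out few genes.

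The cadherin system was searched beyond the 4 genes. The 8 lists searched held 127 genes: type I, type II, atypical and desmosomal cadherins, both groups of protocadherins, large and related cadherins, and catenins. Of these, 7 genes named 12 windows, all in the ventral 22 h table, of which 11 were higher and 1 lower at 22 h (75.7% of that table was higher). The 7 genes were 5.51% of the lists, against 2.7% of the protein-coding symbols of the RefSeq gene table. The 4 member genes among them were chosen because they name windows, so no enrichment is read from these shares. Among the type II cadherins 3 of 13 genes named 5 windows, and among the non-clustered protocadherins 2 of 12 named 3. None of the 5 type I, 5 atypical, 9 desmosomal and 58 clustered protocadherin genes named any.

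Beyond the 4 genes, these were Pcdh20, Ctnnd2 and Fat3. Pcdh20, another protocadherin gene on chromosome 14, had a window 432 kb from its start site with 14.7 RPKM at 22 h and 2.68 RPKM at 24 h, and another 97 kb away with 11.8 RPKM at 22 h and 1.91 RPKM at 24 h. Ctnnd2, which encodes delta-catenin, a neuronal partner of cadherin tails, had 3 windows between 129 and 189 kb upstream, 5.48-, 7.13- and 5.98-fold higher at 22 h. They held 32, 29 and 27 CpGs and tandem units spaced by 208 bp, as at the 1576 kb Cdh11 window. Fat3, a giant cadherin that shapes dendrites, went the other way: its window, 76.1 kb upstream, had 4.41 RPKM at 22 h and 13.4 RPKM at 24 h (ratio 0.33, interval 0.18 to 0.60). With 6 CpGs it was the poorest in CpG of the 12, and its median word occurred 3631 times in the genome.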

How the data were processed

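MeDIP-seq windows were compared in the ventral SCN between 22 h and 24 h cycles. Reads were aligned with BWA to mm9, per the submitters' processing notes; the BWA version, the window selection and the pooling of duplicates are not given in the sources used here. Per the file headers, the authors gave RPKM values and a column named counts for both cycle lengths. Those deposited counts are a score: whole numbers that rise with, but not in proportion to, RPKM, and they were not used. The authors' log2 fold change and p-value come from edgeR, per the file headers, and the fold change is 24 h over the other cycle. Distances to start sites are the authors'.

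The read number of a window was recovered from the RPKM that 1 read is worth in a column: all values below 30 RPKM were whole multiples within 0.01 RPKM. Ratios are 22 h over 24 h. From the ventral 26 h windows, 3 repeated rows were removed. With 1 column for each cycle length, no test across samples was run. Sequence came from the mm9 genome (NCBIM37) with GENCODE M1; evenly spaced windows (every 500th of the 500-bp grid, without unknown bases) stood in for the random ones planned. Nucleotide alignments scored 2 for a match, -3 for a mismatch, -5 to open and -2 to extend a gap; proteins were aligned with BLOSUM62. The names of 127 list genes all matched the RefSeq gene table. Scripts were tested on simulated data and used Python 3.11.15, scipy 1.17.1, numba 0.67.0, Biopython 1.88 and pysam 0.24.0.

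The members and gene lists were chosen with earlier results of these data known. The genes named are the 4 members, every list gene with a window, and for each member window the listed window nearest in values and the one sharing most words.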

Additional observations from a re-analysis of the deposited data

How the results depend on the processing

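The median ratio of the 6 cadherin windows stayed above 1 under all 9 alternatives, between 4.16 (without the Cdh11 windows, and likewise without Pcdh8) and 7.56 (reads not scaled to depth), and all 6 windows remained higher at 22 h wherever all were kept. Without the Cdh11 windows 3 windows were left, all higher at 22 h. With 1 read added to each column the ratio was 10.2 for the 819 kb Cdh11 window and 8.32 for Pcdh8, which rest on 2 reads at 24 h. At 99% the lowest bound of any ratio was 1.66. With at least 80% single-copy words required, 0 windows were mostly unique, and the median distance to the nearest annotated start of any gene was 406 kb. None of these alternatives turned the direction of a ratio. The windows were listed for a large difference between these same columns, so such changes could hardly turn it. The unchanged direction is therefore no support for the difference. The other 3 tables held no member, so they gave no value. No paired analysis was possible because each table has 1 column per cycle length and none names a replicate; for the same reason no replicate could be left out.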
